A study of Mus musculus with 12 samples.

Results

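Fbxo22 and Nrg4 lie tail to tail on mouse chromosome 9, and the nascent RNA signal of both was highest late in the light phase and at lights off. They are 2 of the 21490 gene symbols measured and 2 of the 6284 that exceeded 6 reads per base pair (rpbp) in at least 1 library. Both were chosen by position, since they overlap, and by the 12 values themselves, since their 24-hr peaks fell at nearly the same hour, so their rhythm is described here without a test. The window of chromosome 9 searched around them held no other symbol lying wholly inside it.

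The 12 libraries are chromatin-bound, poly(A)-depleted RNA from livers of adult C57BL/6 mice aged 3 to 6 months, given by the methods of the study as male and wild type. The animals had been kept for at least 2 weeks under 12 hr of light and 12 hr of darkness. Livers were taken at 6 zeitgeber times (ZT, hr after lights on), namely ZT0, ZT4, ZT8, ZT12, ZT16 and ZT20, with 2 replicates each. No treatment, mutation or transgene separates the groups, and the study describes the 12 samples as independent. The labels do not say whether a sample is 1 animal, so the spread between replicates may be in part technical.

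F-box proteins are the substrate-binding subunits of SCF ubiquitin ligases, in which Skp1 links the F-box protein to the cullin scaffold Cul1 and the RING protein Rbx1 recruits the ubiquitin-conjugating enzyme. Fbxo22 encodes one of these F-box proteins. Nrg4 encodes neuregulin 4, a growth factor of the epidermal growth factor family that signals through ErbB receptor tyrosine kinases, above all ErbB4. It is best known as a factor secreted by fat, in particular brown fat, that acts on the liver.

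Fbxo22 (ENSMUSG00000032309.9) occupies chr9:55056742-55072240 on the plus strand in mm9, a span of 15499 bases with 8 merged exons. Nrg4 (ENSMUSG00000032311.10) occupies chr9:55069108-55131402 on the minus strand, a span of 62295 bases with 14 merged exons. The genes are transcribed towards each other, and their spans share 3133 bases at the 3′ ends. The last and longest exon of Fbxo22, chr9:55071047-55072240, lies wholly inside the Nrg4 span. Its 1194 bases are 50.1% of the 2384 exon bases of Fbxo22. In the other direction, 310 of the 4031 exon bases of Nrg4 (7.69%) lie inside the Fbxo22 span. These are the 108 bases of its last merged exon, which fall in the final intron of Fbxo22, and 202 bases where the exons of both genes coincide.

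The deposited signal counts reads of both strands together. Nascent RNA also contains introns, so reads from an Nrg4 intron that crosses the last Fbxo22 exon are counted for Fbxo22. From this signal the contributions of the 2 genes to the shared bases cannot be told apart. The exons used for these base counts come from the GENCODE M1 annotation of the same build, clipped to the gene bounds of the deposited table, and may differ from the exons the authors used. In that annotation the transcripts Nrg4-003 and Nrg4-202 run past these bounds, to 55068029 and 55068030. They also cover merged exon 7 of Fbxo22 (166 bases), so the overlap may be larger than counted here. The study also reports that nascent signal often runs beyond the annotated 3′ end, for some genes into a neighbour. Whether this happened between Fbxo22 and Nrg4 was not tested, and the base counts follow the annotation only.

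**Figure D1:**
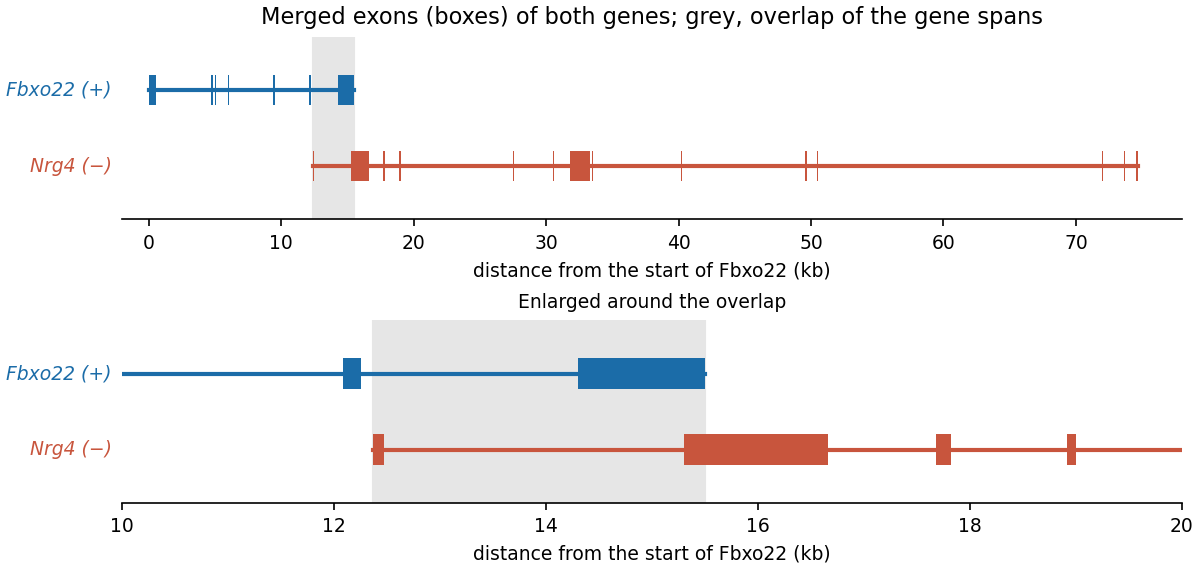
Exons of Fbxo22 and Nrg4 against distance from the start of Fbxo22 (kb), with boxes for merged exons and lines for introns; the lower panel enlarges the overlap. Fbxo22 reads from left to right and Nrg4 from right to left, and the grey overlap of 3133 bases covers the whole last exon of Fbxo22.

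The opposite ends of the genes, where transcription starts, are far apart. For 1 start per gene annotated in GENCODE M1, 55056732 for Fbxo22 and 55131432 for Nrg4, the 250 bases before it are shown. They are given because the genes moved together in time while their start regions are separate. Matches to the motifs searched are in capitals (NCBIM37, the assembly of mm9). Other annotated starts were not searched, among them those of 3 Nrg4 transcripts over 1 kb upstream of the deposited bounds. Both starts searched lie just outside the gene bounds of the deposited table given above, and motif positions are counted back from them. The Fbxo22 region is chr9:55056482-55056731 on the plus strand, and the Nrg4 region is chr9:55131433-55131682 on the minus strand.
Fbxo22: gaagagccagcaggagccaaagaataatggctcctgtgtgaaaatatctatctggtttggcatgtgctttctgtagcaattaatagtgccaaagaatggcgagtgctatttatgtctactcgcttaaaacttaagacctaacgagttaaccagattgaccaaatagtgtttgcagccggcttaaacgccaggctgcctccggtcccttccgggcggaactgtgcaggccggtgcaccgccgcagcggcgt
Nrg4: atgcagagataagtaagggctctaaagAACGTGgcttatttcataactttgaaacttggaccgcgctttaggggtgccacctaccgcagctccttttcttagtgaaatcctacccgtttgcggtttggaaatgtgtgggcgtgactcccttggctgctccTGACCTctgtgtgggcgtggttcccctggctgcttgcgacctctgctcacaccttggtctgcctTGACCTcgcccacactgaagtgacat
Motifs were searched on both strands as exact letters, namely the E-box CACGTG, the related CACGTT, the D-box TTATGTAA, the nuclear receptor motif AGGTCA and the cAMP response element TGACGTCA. None of the 5 was found in the Fbxo22 window. The Nrg4 window held CACGTT read on the other strand (AACGTG) at positions -223 to -218 before the start. It also held AGGTCA read on the other strand (TGACCT) at -90 to -85 and again at -26 to -21. Over the same window of 14195 annotated genes, CACGTT was found in 4.21% and AGGTCA in 11.4%, while CACGTG was found in 7.54%, TGACGTCA in 2.30% and TTATGTAA in 0.472%. The windows of both genes were lower in GC content, at 50.4% for Fbxo22 and 53.2% for Nrg4, than the median of 58.4%. They held 13 and 10 CpG dinucleotides, against a median of 13.0.

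Column sums of the 12 libraries ranged from 118342 to 160545 rpbp, and the deposited signal is scaled coverage rather than a count. The read totals that the study lists for each library were not used here, so no counting interval is given. Replicates of a time point correlated at 0.832 to 0.935 (Pearson, log2 scale, across genes, which are not independent). The typical gene was displaced by -0.229 log2 in ZT16 replicate 2 and by 0.155 log2 in ZT0 replicate 2, the extremes, and genes in the highest GC bin were displaced by -1.22 log2 against those in the lowest in ZT8 replicate 2. Libraries of ZT8 and ZT20 were sequenced in 2 lanes and the others in 1, so lanes and time points cannot be told apart over the whole day. All 6 hepatocyte markers, among them Alb and Cps1, exceeded 6 rpbp, with summed levels of 733 to 1962 rpbp. Of the markers of other cells, 3 of 4 for Kupffer cells (Clec4f, Emr1 and Marco), 1 of 4 for endothelial cells (Stab2) and 1 of 3 for blood cells (Ptprc) exceeded it, and none for stellate or bile duct cells did.

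Fbxo22 was detected at a steady level with a moderate daily swing. In replicates 1 and 2 the signal was 9.0 and 9.6 rpbp at ZT0, 10.7 and 11.3 at ZT4, 16.6 and 17.0 at ZT8, 15.6 and 19.7 at ZT12, 11.9 and 13.0 at ZT16, and 10.4 and 9.7 at ZT20. The 4 libraries of ZT8 and ZT12 lay above the other 8. The lowest time-point mean was 9.30 ± 0.424 rpbp (ZT0) and the highest 17.6 ± 2.90 rpbp (ZT12; SD, n = 2), a ratio of 1.90. The replicates of ZT12 and ZT8, the highest pair, overlapped, while those of each next pair in the order ZT8, ZT16, ZT4, ZT20, ZT0 did not.

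Nrg4 had a lower floor and a wider swing. In replicates 1 and 2 the signal was 3.4 and 3.0 rpbp at ZT0, 4.1 and 3.6 at ZT4, 13.2 and 14.7 at ZT8, 14.1 and 16.9 at ZT12, 4.7 and 10.7 at ZT16, and 4.2 and 3.5 at ZT20. The libraries of ZT8 and ZT12 again lay above all others. At ZT16, the first time point after the peak, the replicates differed most, with replicate 1 near the floor and replicate 2 still well above it. Means ran from 3.20 ± 0.283 rpbp at ZT0 to 15.5 ± 1.98 rpbp at ZT12 (SD, n = 2), a ratio of 4.84. Replicates overlapped between ZT12 and ZT8 and between ZT20 and ZT4, whose means were equal at 3.85 rpbp.

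**Figure D2:**
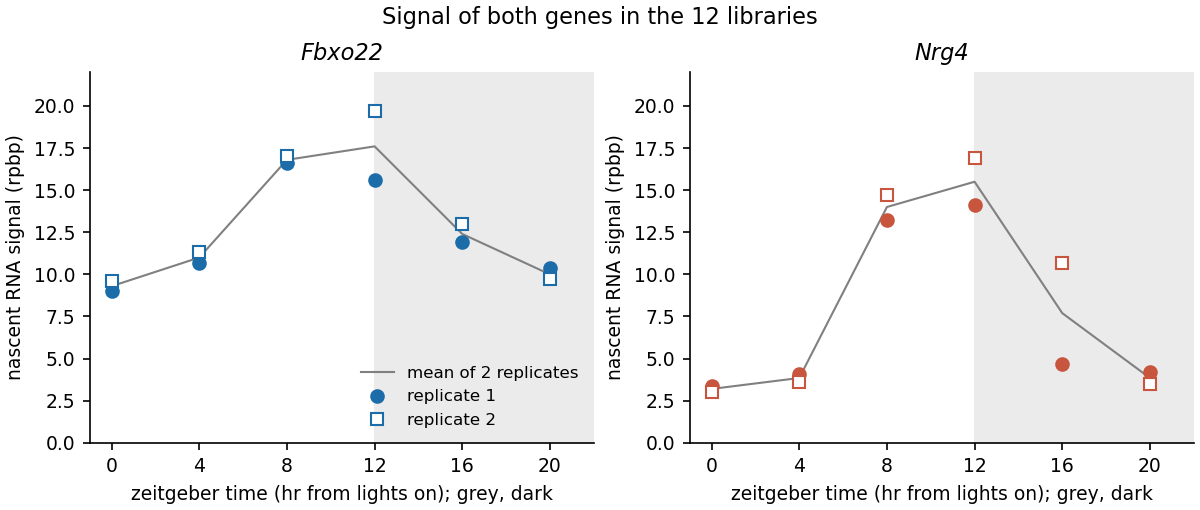
Nascent RNA signal (rpbp) of Fbxo22 and Nrg4 against zeitgeber time (hr), with filled circles for replicate 1, open squares for replicate 2 and a line through their mean. Both genes were highest at ZT8 and ZT12, and Nrg4 fell to 3.20 rpbp at ZT0 while Fbxo22 stayed at 9.30 rpbp.

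A 24-hr cosine fitted to the 12 values summarised these courses. F24, the share of a gene's variance that this cosine holds, was 0.869 for Fbxo22 and 0.830 for Nrg4. The cosine peaked at 10.7 hr for Fbxo22 and 11 hr for Nrg4. In replicate series 1 alone the peaks were 10.5 and 10.3 hr, and in series 2 they were 10.8 and 11.4 hr, so the order of the genes in time turned between the series. Differences between time points made up 92.8% of the variance of Fbxo22 and 92.7% of that of Nrg4. The coefficient of variation over libraries was 0.272 and 0.676. Of all 6284 tested symbols, 15.1% met the criteria for rhythm, which are an unadjusted permutation p under 0.05, an F24 above 0.45 and more than 1.5 times between the extreme libraries. A permutation p adjusted over all tested symbols stayed under 0.05 for 0.812% of them. These shares are background only, because both genes were picked for their rhythm.

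The rise is described here within libraries run in the same number of lanes. Both genes were chosen for their hour of peak, and the part of lanes was not tested. Among the libraries of 2 lanes, the ZT8 mean was 1.67 times the ZT20 mean for Fbxo22 and 3.62 times for Nrg4. Among those of 1 lane, the ZT12 mean was 1.90 and 4.84 times the ZT0 mean, and the ZT16 mean 1.13 and 2.00 times the ZT4 mean. No replicates overlapped in these comparisons. With 2 libraries against 2 this is a weak criterion, and its share over all tested symbols is not given, here or for the courses above. Summed Kupffer cell markers ranged from 11.6 to 42.7 rpbp at ZT8 and ZT12 and from 16.5 to 27.7 rpbp at the other times, blood cell markers from 3.20 to 7.20 and from 2.00 to 4.90 rpbp, and endothelial markers from 8.50 to 20.7 and from 13.5 to 17.8 rpbp. Their part in the rise was not tested, and in whole tissue a change in cell number and a change in RNA per cell cannot be told apart. The adipocyte markers present, Adipoq and Cidea, stayed at or below 0.1 and 1.30 rpbp, and their sum at ZT8 and ZT12 was 0 to 0.400 rpbp.

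Levels averaged over the day had not been used to choose the genes, and rpbp is a value per exon base. Only the deposited signals are compared, since 50.1% of the exon bases of Fbxo22 may also count Nrg4 reads. The study also describes a 5′ to 3′ signal gradient for many genes, which was not corrected for. Fbxo22 averaged 12.9 ± 3.50 rpbp and Nrg4 8.01 ± 5.41 rpbp (SD, n = 12), above 76.6% and 53.2% of tested symbols. Fbxo22 was higher in 12 of 12 libraries, with a mean difference of 0.823 on the log2(rpbp + 1) scale (SD 0.539, two-sided exact permutation test over swaps within libraries, p = 4.88e-04, the smallest the 4096 swaps can give). The swaps treat all libraries alike, although the gap depended on time and was narrowest at ZT8 and ZT12. The ratio of Fbxo22 to Nrg4 was 2.92 ± 0.391 at ZT0, 2.87 ± 0.374 at ZT4 and 2.62 ± 0.209 at ZT20 (SD, n = 2). It was 1.21 ± 0.0715 at ZT8 and 1.14 ± 0.0419 at ZT12, and at ZT16 it was 1.87 ± 0.931.

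Across the 12 libraries the genes followed each other closely. On the log2 scale their Pearson correlation was 0.957 and their Spearman correlation 0.958, and each was the gene most correlated with the other among all tested symbols. The points share libraries, time points and part of the counted bases, so the correlation is a description. It was 0.967 and 0.950 within replicate series 1 and 2 (n = 6 each), and 0.938 without the ZT8 and ZT12 libraries of replicate 2, which lay farthest from the Nrg4 median. Differences between the replicates of a time point correlated less (Pearson 0.380, Spearman 0.771, n = 6), and at ZT16 the replicates of Nrg4 stood 6.0 rpbp apart while those of Fbxo22 stood 1.1 rpbp apart.

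On the linear scale Fbxo22 rose by 0.625 rpbp for each rpbp of Nrg4, and the slope ran from 0.573 to 0.651 when each library was left out. The fitted line met an Nrg4 level of 0 at 7.87 rpbp, and the remaining spread was 0.961 rpbp. For scale, if Nrg4 reads covered its introns as densely as its exons, the exon bases inside its span would add 0.501 rpbp to Fbxo22 for each rpbp of Nrg4. What the introns, or any signal beyond the annotated gene ends, contributed was not measured in the table used here.

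An alternative added after the data were seen subtracted from each gene, by that arithmetic, an assumed part of the other's signal. The swing of Fbxo22 became smaller and Nrg4 stayed nearly as it was. Both outcomes follow in large part from the assumed shares, 0.501 of Nrg4 for Fbxo22 but 0.0769 of Fbxo22 for Nrg4. They do not tell which gene the shared reads came from. Fbxo22 then ran from 8.01 ± 0.589 rpbp at ZT0 to 10.3 ± 1.98 rpbp at ZT12 (SD, n = 2), a ratio of 1.28 in place of 1.90. Its F24 fell to 0.533 and its peak moved to 9.74 hr. With Nrg4 removed at 0.5 of its exon level the ratio was 1.62, F24 0.840 and the peak 10.5 hr. Nrg4 gave ratios of 5.69 and 5.21 under the full and the smaller removal, with F24 of 0.825 and 0.828 and a peak of 11 hr in both. Under the full removal Fbxo22 was higher than Nrg4 in 7 of 12 libraries, with a mean difference of 0.574 (two-sided exact permutation test, p = 0.0483), and under the smaller one in 9 of 12 with 0.717 (p = 0.0122).

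**Figure D3:**
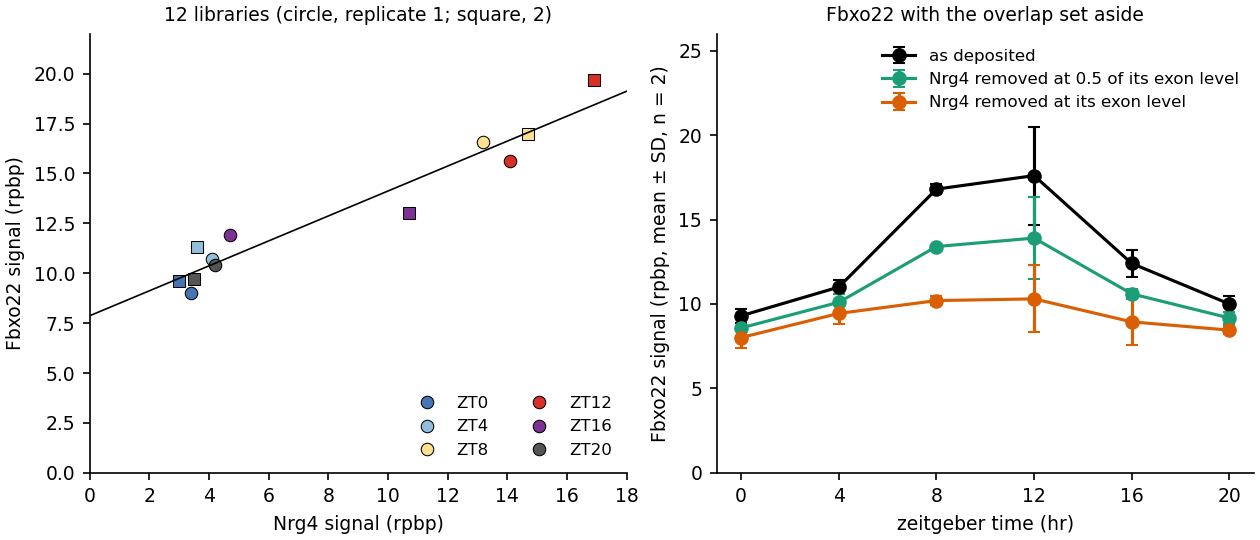
Left, Fbxo22 against Nrg4 signal (rpbp) in the 12 libraries, coloured by time point, with the line fitted over them (slope 0.625). Right, mean Fbxo22 signal (rpbp) by zeitgeber time with SD bars (n = 2), as deposited and with Nrg4 reads set aside at 2 assumed levels: the ratio of ZT12 to ZT0 goes from 1.90 to 1.62 and 1.28.

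Pairs of genes arranged in the same way gave the scale for this correlation. Among the tested symbols, 118 pairs on opposite strands overlapped at their 3′ ends, with a median correlation of 0.752 (quartiles 0.601 and 0.890) and a median overlap of 1056 bases. Fbxo22 and Nrg4 exceeded 89.0% of these pairs, and 12 pairs were higher. For 1324 of the 1708 overlapping pairs the relative strand was unknown, so they could not be placed in such a group. Over all 1708 pairs the median was 0.821, and Fbxo22 and Nrg4 exceeded 79.6%. Where one gene lay inside another on the opposite strand, the median over 119 pairs was 0.268, and where the 5′ ends overlapped it was 0.641 over 25 pairs. Taken singly, 15.1% of all tested symbols were called rhythmic. Both genes were called in 5 of the 118 pairs (4.24%), 1 gene in 11 and neither in 102. The other 4 of these 5, named after their values were seen, were Elovl3 with Pitx3, Thra with Nr1d1, A230050P20Rik with Angptl6, and Tsr1 with Srr. Peaks within these 5 pairs lay 0.0504 hr (Tsr1 and Srr) to 1.04 hr (A230050P20Rik and Angptl6) apart, and 0.303 hr apart for Fbxo22 and Nrg4. The signal of every such pair counts both strands, but the shared stretch differed widely in length. Among these 5 pairs it ran from 9 bases (Elovl3 and Pitx3, correlation 0.989) to 5313 bases (Tsr1 and Srr, 0.908). Its part in the correlations was not tested. Fbxo22 and Nrg4 were chosen for their overlap and near-equal peaks, so their rank, call and peak gap among these pairs are description only.

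**Figure D4:**
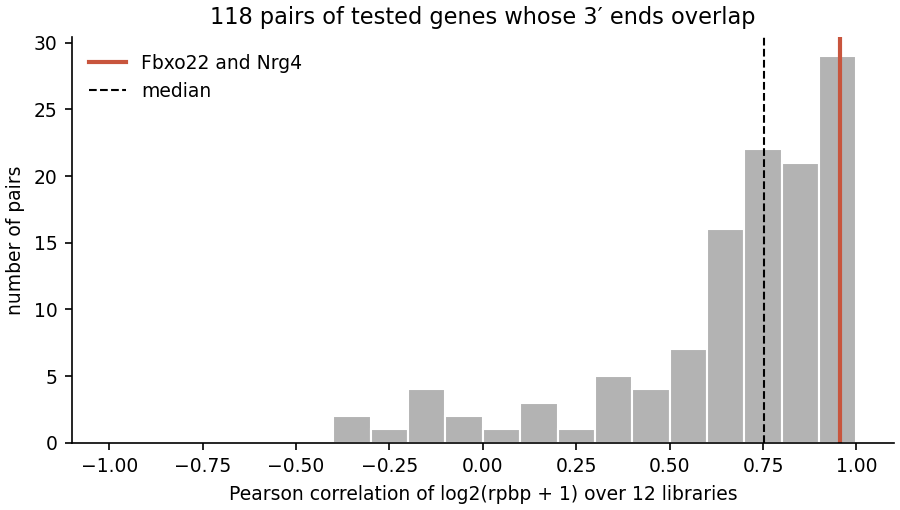
Number of overlapping gene pairs by their Pearson correlation over the 12 libraries, for 118 pairs whose 3′ ends overlap. The dashed line marks the median of 0.752 and the solid line the pair of Fbxo22 and Nrg4 at 0.957, in the upper end of the distribution.

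The genes next to the pair had far less signal. Ube2q2, which encodes a ubiquitin-conjugating enzyme and ends 1406 bases before Fbxo22 on the same strand, stayed between 1.5 and 2.80 rpbp and under the threshold of 6 rpbp. Its means ran from 1.80 ± 0.141 at ZT4 to 2.45 ± 0.212 at ZT8 (SD, n = 2), F24 was 0.0765, and limma's F-test over the time points, fitted without the threshold, gave an adjusted p of 0.737. AI118078 begins 43353 bases beyond the Nrg4 start, and 104 bases beyond the most upstream Nrg4 transcript of GENCODE M1, which the table does not use. It was very low, with 1.4 and 1.1 rpbp at ZT12 and 0.200 to 0.6 rpbp at all other times. In the limma fit without the threshold, where 0.641% of 20756 symbols were called, its adjusted p was 0.0483, while its F24 was only 0.154.

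The 5 nearest tested symbols on either side, which begin 171 kb beyond Nrg4 with Etfa and 251 kb before Fbxo22 with Psma4, were taken by position. Of these 10, 5 were called rhythmic, against the background of 15.1%. They peaked at other hours: the proteasome subunit Psma4 at 3.91 hr, Scaper at 3.96 hr, Wdr61 at 4.32 hr, C630028N24Rik at 5.79 hr and Etfa, which encodes a subunit of the mitochondrial electron transfer flavoprotein, at 0.0237 hr. Psma4 alone kept an adjusted permutation p under 0.05 (0.0403), and it ran from 3.00 ± 0.141 rpbp at ZT16 to 5.85 ± 0.495 rpbp at ZT4 (SD, n = 2). Psma4, Wdr61 and Scaper exceeded 6 rpbp only in their highest library (6.20, 6.10 and 7.40 rpbp). That library belonged to the time point where each was highest, so these genes were tested only through that time. With libraries rescaled to equal medians, 3 of the 10 were called, and Wdr61 and Scaper were lost. The call of Wdr61 held in 5 of 18 alternative settings. In limma's F-test, which called 7.65% of tested symbols, 1 of the 10 passed, AY074887 (adjusted p = 0.0466), and it passed in only 3 of 18 alternative settings. Correlations of the 10 with Nrg4 lay between -0.666 (Etfa) and 0.219 (C630028N24Rik), and with Fbxo22 between -0.631 and 0.226 for the same genes.

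Nrg4 acts through ErbB receptors, and 11 of the 14 other ligands and receptors listed were in the table. Erbb4, its main receptor, had a daily course of its own, out of step with Nrg4. In replicates 1 and 2 it gave 6.4 and 8.3 rpbp at ZT0, 7.4 and 3.5 at ZT4, 7.7 and 9.3 at ZT8, 2.6 and 0.9 at ZT12, 0.6 and 0.6 at ZT16, and 2.4 and 3.1 at ZT20. It was thus high through most of the light phase, still high with Nrg4 at ZT8, and low at ZT12, where Nrg4 was highest. It was called rhythmic, with F24 of 0.648 and a peak at 4.05 hr (unadjusted permutation p = 0.0192, adjusted p = 0.209). Its time points differed in limma's F-test (adjusted p = 0.0103). The highest mean was 8.50 ± 1.13 rpbp, at ZT8, and the lowest was 0.6 rpbp, at ZT16, where both replicates were equal (SD, n = 2). The rhythm call held in all 18 alternative settings that tested it, and the limma call in 17, being lost without the threshold.

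Of the other receptors, Erbb3, which also takes part in neuregulin signalling, ranged from 10.5 to 29.2 rpbp and Egfr, the receptor of epidermal growth factor, from 9.20 to 159 rpbp. Neither was called. The replicates of Egfr at ZT4 were 23.4 and 159.3 rpbp and at ZT8 14.7 and 132.1 rpbp. Erbb2 stayed at 0.1 to 0.6 rpbp. Every other ligand of the list in the table was under the threshold: Tgfa reached 3.20 rpbp, Btc 1.00, Egf 0.8, Hbegf 0.6, Nrg1 0.400 and Ereg 0.200, and Epgn was listed at 0 throughout. Among the ligands measured, Nrg4 therefore had the highest deposited signal by mean. Its lowest time-point mean was 3.20 rpbp (ZT0), and the means of the others did not exceed 2.60 rpbp at any time (Tgfa, ZT12). Ranges of single libraries overlapped, since Nrg4 fell to 3.00 rpbp and Tgfa reached 3.20 rpbp. With the overlap removed, the ZT0 mean of Nrg4 was 2.58 ± 0.328 rpbp, and 2.87 ± 0.302 rpbp under the smaller removal (SD, n = 2). At its lowest time point the order thus depended on the signal shared with Fbxo22.

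**Figure D5:**
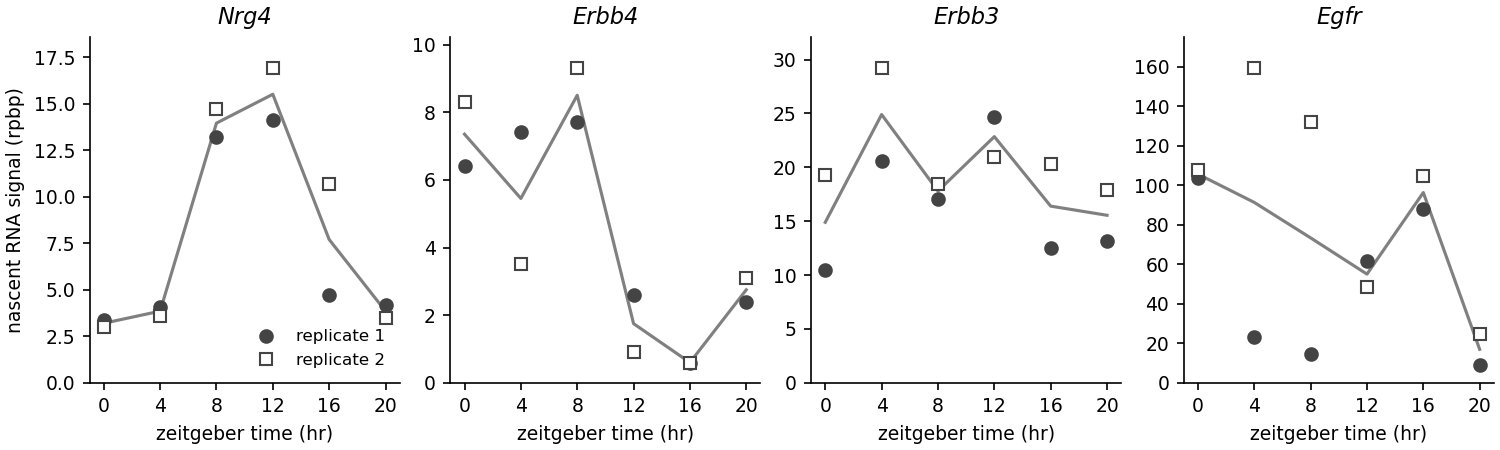
Signal (rpbp) of Nrg4 and the ErbB receptor genes Erbb4, Erbb3 and Egfr against zeitgeber time (hr), with filled circles for replicate 1, open squares for replicate 2 and a line through their mean; each panel has its own scale from 0. Erbb4 falls from 8.50 rpbp at ZT8 to 0.6 rpbp at ZT16, and Egfr replicates lie up to 135.9 rpbp apart.

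Fbxo22 belongs to a family of ligase subunits, and all 26 listed SCF genes were in the table, 10 of them tested. The core subunits showed no called rhythm: Cul1 ranged from 5.80 to 11.2 rpbp and Cand1, which exchanges F-box proteins on Cul1, from 4.70 to 8.50 rpbp, while Skp1a (2.80 to 4.90 rpbp) and Rbx1 (1.60 to 2.90 rpbp) stayed under the threshold. Of the 10, 4 were called rhythmic, among them Fbxo31, Btrc and Fbxo9, where 15.1% of all tested symbols were. Fbxo31 peaked nearest to Fbxo22 of these 3, at 12.2 hr, and it was high at a single time point, with 17.0 ± 0.0707 rpbp at ZT12 and 2.55 ± 1.20 rpbp at ZT20 (SD, n = 2). It was also the 1 gene of the list called by limma (adjusted p = 0.0262, against 7.65% of all tested symbols called), in 14 of 19 alternatives, and its rhythm call (F24 0.466) held in 10 of 19. Btrc at 6.24 hr and Fbxo9 at 4.13 hr peaked earlier, with ratios of highest to lowest mean of 1.81 and 1.45, and both lost the call when libraries were rescaled to equal medians. The median F24 of the 10 was 0.366, against 0.222 over all tested symbols.

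Apart from each other, the genes most like Fbxo22 in their log2 values over the 12 libraries were Tef (Pearson 0.944), IL15ra (0.924), Pitpnc1 (0.912), Stk35 (0.899) and Gm129 (0.897). Those most like Nrg4 were Per3 (0.932), Tef (0.917), AK161900 (0.909), IL15ra (0.903) and Arhgap21 (0.899). All peaked between 10.1 and 11.8 hr. Tef encodes a PAR bZIP transcription factor that binds D-boxes, and Per3 a period protein. Per3 had the lower floor of these, at 0.950 ± 0.495 rpbp (ZT0), and reached 22.5 ± 0.141 rpbp (ZT12; SD, n = 2). Its ZT16 replicates split as those of Nrg4 did, with 6.2 and 12.1 rpbp, while those of Tef were 17.3 and 17.9 rpbp.

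Clock genes and their direct outputs spread widely on this measure. Usp2 (0.837 with Fbxo22, 0.861 with Nrg4), Dbp (0.795 and 0.732), Nr1d2 (0.778 and 0.748) and Per1 (0.733 and 0.757) followed both genes in part. Per2 (0.523 and 0.554), Hlf (0.575 and 0.399) and Nr1d1 (0.398 and 0.293), which peaks at 6.22 hr, followed them less. Cry1, which encodes a cryptochrome and peaked at 18.7 hr, gave -0.338 and -0.328. Arntl, which encodes BMAL1 and peaked at 22.5 hr, ran opposite to both, at -0.903 with Fbxo22 and -0.910 with Nrg4. These genes share the 12 libraries with the pair, and the values describe likeness in time over these libraries only.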

How the data were processed

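Nascent RNA was measured in 12 mouse liver libraries, grouped by the time point and replicate number of the sample labels. The authors aligned reads to mm9 with TopHat (CASAVA 1.7 is also named in the submitters' processing notes; the TopHat version is not given in the sources used here), and kept uniquely mapped reads. The deposited signal is the coverage over the merged exons of a gene symbol, both strands together, in reads per base pair, scaled to equal read numbers and rounded to 1 decimal. The 3 deposited columns of the authors' own statistics (F24, phase and p-value per gene) were not used.

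The 27919 blank lines of the table were dropped. Tests covered the symbols that exceeded 6 rpbp anywhere, with F24 on linear values and 100000 permutations (20000 in the alternatives), and with limma 3.58.1 (R 4.3.3; a moderated F-test of time point, fitted to log2(rpbp + 1)), both with Benjamini-Hochberg adjustment over all 6284 tested symbols. Both procedures were tested on simulated data. Table starts count from 0 and were raised by 1. A GENCODE M1 gene on NCBIM37 was found for 14195 symbols. Exon bases of the pair were merged from that annotation, and the shared bases were set aside by solving both signals as a sum of an own and a shared part. The GC correction used 20 bins and the 4306 tested symbols with exon GC content. Each mean rests on 2 replicates, which limits its precision.

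Genes were named by rule: the pair, symbols in the window, the 5 nearest tested symbols on each side, called or ranged members of an ErbB and an SCF list, the 5 most correlated symbols per gene, and 11 clock and output genes. A gene that the rule selects is not reported here. The members and all lists were chosen with earlier results of these data known. Alternatives were thresholds of 3 and 12 rpbp or none, log2 values, a pseudocount of 0.1, a replicate block, each series alone, a lane block, rescaling to equal medians, a GC correction, and each library left out. Removal of the overlap was added after the data were seen. Other assays of the study were not used here.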

Additional observations from a re-analysis of the deposited data

How the results depend on the processing

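The mean level difference between the genes kept its sign under the alternatives run. With the overlap removed, however, Fbxo22 was higher in only 7 of 12 libraries. The order of the phases changed: Nrg4 followed Fbxo22 in the pooled fit and in series 2 and preceded it in series 1 alone (10.3 against 10.5 hr). The phase of Nrg4 stayed within 10.3 to 11.5 hr, and its F24 of 0.830 became 0.941 in series 2 alone. The phase of Fbxo22 moved from 10.7 to 11.1 hr with rescaled libraries and to 9.74 hr with the overlap removed. Its F24 of 0.869 became 0.913 on the log2 scale, 0.894 and 0.924 in series 1 and 2 alone, 0.897 with rescaled libraries, 0.812 with the GC trend removed, 0.533 with the overlap removed and 0.840 with the smaller removal. Fbxo22 and Nrg4 correlated at 0.976 after rescaling and at 0.928 after the GC correction. Leaving out each library gave phases of 10.4 to 11 hr and F24 of 0.852 to 0.904 for Fbxo22, phases of 10.6 to 11.5 hr and F24 of 0.802 to 0.929 for Nrg4, and a level difference of 0.769 to 0.886 (log2).

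Over all genes, 950 rhythm calls became 508 at 12 rpbp and 2220 without a threshold, and 481 limma calls (1737 at an unadjusted p under 0.05) became 133 without one. Without 1 library they ranged from 800 (ZT4 replicate 1) to 1273 (ZT8 replicate 2), and from 170 (ZT0 replicate 1) to 638 (ZT16 replicate 1). Of the 10 neighbours, the 5 called rhythmic became 1 at 12 rpbp and 3 after rescaling (3 to 6 without 1 library). The 1 called by limma became 0 at 3 rpbp, 12 rpbp, no threshold, a pseudocount of 0.1, the replicate block and rescaling (0 to 2 without 1 library). Erbb4 was under the threshold at 12 rpbp, leaving 0 rhythm and 0 limma calls in the ErbB list. Without a threshold there were 3 and 0, and without 1 library 1 and 1. The 4 SCF rhythm calls became 2 at 12 rpbp and 1 after rescaling (1 to 4 without 1 library), and the 1 limma call became 0 without a threshold and with the GC correction (0 to 1 without 1 library). The causes were not tested.

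Replicate numbers were not taken to pair the samples, since the labels name no shared batch and the deviations of same-numbered samples correlated over 0.1 in 5 of 15 pairs of time points (-0.117 to 0.320). The replicate block gave 973 rhythm calls and 455 limma calls, F24 of 0.890 and 0.847 and unchanged phases for Fbxo22 and Nrg4. Library read totals were not used, so no depth limit is given for low symbols such as AI118078.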
